A study of Homo sapiens with 6 samples.

Results

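The 10 genes described here encode transcription factors that set and hold B cell identity, above all in the germinal centre: BCL6, PAX5, EBF1, POU2AF1, POU2F2, SPIB, BACH2, TCF3, BCL11A and PRDM1. They were chosen by name for these roles, with earlier results of these data known. All 10 were found among the 18278 genes of the table. Their mRNA was measured in Toledo, a suspension line that was established from a human lymphoma of the diffuse large B cell kind. TP-064, an inhibitor of the arginine methyltransferase CARM1, was given at 5 uM for 6 days in 3 samples, and the solvent DMSO was given for the same 6 days in 3 more. The series is about CARM1 inhibition in lymphoma with mutated CREBBP or EP300, which encode acetyltransferases. All 6 samples come from this 1 line, and whether they were grown as separate cultures is not stated. The p-values therefore reflect the variation among these 6 samples alone, and that variation could be technical.

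In the B lineage, TCF3 and EBF1 act early and turn on PAX5, which keeps cells committed to the lineage. In the germinal centre BCL6 holds cells in a proliferating state by repressing genes of activation and differentiation, BACH2 acts with it to hold back plasma cell differentiation, and POU2AF1 serves as a coactivator for the octamer-binding factors POU2F2 and POU2F1. SPIB is an ETS factor of mature B cells and BCL11A a zinc finger protein needed for B cell development. PRDM1 encodes BLIMP1, which drives plasma cell differentiation and represses much of the B cell programme, BCL6 and PAX5 included, and BCL6 and BACH2 in turn repress PRDM1.

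Promoter sequences were available from RefSeq on GRCh38.p14 for 9 of the 10 genes, as 15 entries that each run from 250 bases before a start site to 50 after it. The entries of BCL6, PRDM1 and SPIB are shown because they carry letters that factors described here are known to read, with the matched letters in capitals. The first is the BCL6 entry at chr3:187745419-187745718 on the minus strand. The second is the PRDM1 entry at chr6:106098691-106098990 on the plus strand, which is the downstream one of a pair. The third is the SPIB entry at chr19:50418688-50418987 on the plus strand.
BCL6: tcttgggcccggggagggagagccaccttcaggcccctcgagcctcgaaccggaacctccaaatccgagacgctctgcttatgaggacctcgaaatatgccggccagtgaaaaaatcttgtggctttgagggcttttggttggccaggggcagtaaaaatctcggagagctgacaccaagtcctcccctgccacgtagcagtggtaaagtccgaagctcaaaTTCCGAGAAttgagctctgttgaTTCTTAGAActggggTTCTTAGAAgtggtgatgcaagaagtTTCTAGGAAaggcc
PRDM1: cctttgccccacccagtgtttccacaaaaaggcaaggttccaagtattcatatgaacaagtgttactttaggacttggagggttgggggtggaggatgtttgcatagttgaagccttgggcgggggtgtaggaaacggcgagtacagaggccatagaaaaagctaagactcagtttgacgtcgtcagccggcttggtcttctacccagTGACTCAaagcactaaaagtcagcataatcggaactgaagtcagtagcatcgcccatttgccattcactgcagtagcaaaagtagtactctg
SPIB: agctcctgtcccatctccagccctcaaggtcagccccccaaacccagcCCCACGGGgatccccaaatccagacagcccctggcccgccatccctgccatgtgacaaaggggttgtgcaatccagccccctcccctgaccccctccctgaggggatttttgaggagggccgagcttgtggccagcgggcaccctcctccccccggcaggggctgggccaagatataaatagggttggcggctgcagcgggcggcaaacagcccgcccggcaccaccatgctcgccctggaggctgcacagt
The BCL6 window holds 4 matches to TTCNNAGAA, the core that BCL6 itself reads, and the last of them lies on the other strand. At least 1 match on either strand stood in 4.51% of all 35116 promoter entries, and at least 4 in 0.00854% of them, which is 3 entries. The PRDM1 window holds TGANTCA, read by BACH2 with small MAF proteins and also by AP-1, as did 7.71% of entries, and 1 other BCL6 entry held it too. The SPIB window holds CCCNNGGG, a palindrome read by EBF1, found in 19.1% of entries and also in entries of BCL11A. The octamer ATGCAAAT of POU2F2 was in 0 of the 15 entries and in 1.77% of all entries, and GAGGAAGT, an ETS core with flanks, was in 0 of 15 and 2.59%. The E box CAGGTG of TCF3 was found only in the upstream PRDM1 entry among the 15, and in 20.6% of all entries. GAAAGTG, read by PRDM1, was found only in the EBF1 entry among the 15, and in 4.68% of all entries. Both strands were searched for every motif. A match describes the letters only, the measured RNA does not show which start site was used, and binding was not measured.

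The libraries held 41354131 to 48360867 reads over the listed genes, and values are given as normalized read counts, the deposited counts divided by a size factor for each library. Most genes differed between the groups: 65.1% of the 16048 tested genes passed a limma adjusted p of 0.05, 31.9% as higher and 33.3% as lower after TP-064. The median log2 fold change (TP-064 minus DMSO) was 0.01 with the deposited scaling, 0.13 when each library was scaled to its total reads, and 0.25 when it was scaled to its total of values divided by exon length. Changes near these shifts therefore depend on the scaling. Known B cell markers were present at levels that differed widely. CD79B read 45367 to 46348 normalized read counts after DMSO and 35114 to 39095 after TP-064. CD22 read 1634 to 1840 after DMSO and 280 to 334 after TP-064. MS4A1, chosen after its values were seen, went the other way, at 9853 to 10921 after DMSO and 18334 to 20504 after TP-064. Of 8 such markers 2 rose, 5 fell and 1 was not called. Their sum was 178270 to 195670 normalized read counts after TP-064 and 172820 to 178900 after DMSO, ranges that overlap. Of the T cell markers only CD4 and TRAC were analysed here, at a summed 103 to 113 normalized read counts after TP-064 and 28.03 to 45.7 after DMSO. The myeloid markers analysed summed to 71.2 to 99.5 and 34.6 to 65.6, the natural killer markers to 576 to 647 and 297 to 375, and the epithelial, stromal and erythroid ones to 402 to 453 and 315 to 349, in the same order of groups. No marker analysed was listed at 0 in all libraries, CD3D, CD3E and CD3G were not analysed here, and the part of other cells in the results was not tested. In bulk RNA fewer cells of a kind and less RNA per cell cannot be told apart.

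After TP-064, 3 of the 10 factors rose (POU2AF1, PAX5 and SPIB), 5 fell (POU2F2, BCL6, BACH2, TCF3 and BCL11A) and 2 were not called (EBF1 and PRDM1), by limma at an adjusted p of 0.05. The 8 of 10 called stand beside 65.1% of all tested genes. The changes were small, with a median size of 0.25 on the log2 scale against 0.35 over all tested genes, and none reached 2-fold, a size that 13.1% of tested genes reached with an adjusted p under 0.05. POU2AF1, PAX5, SPIB and POU2F2 kept their call and direction under all 3 scalings. The other scalings moved the median of all tested genes up, to 0.13 and 0.25, so rises could not reverse there. The SPIB rise of 0.11 under the deposited scaling lay below both of these medians. BCL6 (-0.06) and BACH2 (-0.0019) lost their call with scaling to the total per exon length, where TCF3 (0.0038) and BCL11A (0.04) changed sign without a call. With that scaling 4 of the 10 were higher and 1 lower, beside 68.7% of all genes called, 49.9% as higher and 18.8% as lower. With library totals 4 were higher and 4 lower, beside 67.2% called, 41.4% as higher and 25.8% as lower, and BCL11A was not called. Against a null of a 1.2-fold change only POU2AF1 and POU2F2 were called, 2 of 10, beside 34.8% of tested genes. Measured against the median of all tested genes, BCL6 stood at -0.31, BACH2 at -0.25, TCF3 at -0.25 and BCL11A at -0.21 under each of these 3 scalings. A change of scaling moves all genes by nearly the same amount, so these values had to agree. Their agreement is therefore no separate support for the falls.

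**Figure D1:**
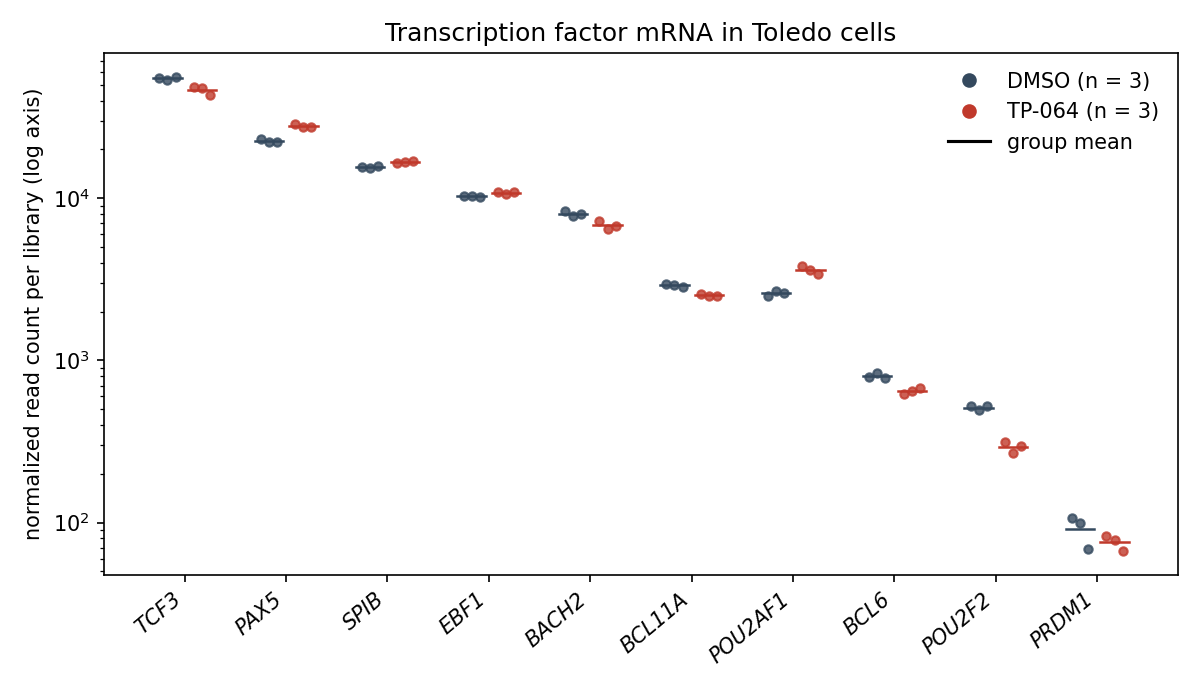
Normalized read count (log axis) of each factor in each of the 3 DMSO libraries (dark points) and 3 TP-064 libraries (red points), with a line at each group mean. The groups are apart for 9 of the 10 factors, as they are for 69.1% of all tested genes. Only in PRDM1, at 67.03 to 107 normalized read counts per library, do they overlap.

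Levels between genes were compared per exon length, scaled so that every library has the same total of 1000000. In the DMSO libraries TCF3 was the most abundant of the 10 at 611 ± 15.7, followed by SPIB at 245 ± 3.93, PAX5 at 164 ± 2.62 and EBF1 at 113 ± 0.734 (SD, n = 3 each). BACH2 stood at 55.8 (libraries from 54.2 to 57.2), POU2AF1 at 23.7 ± 0.848 and BCL6 at 9.16 ± 0.398. BCL11A followed at 7.76 ± 0.127, POU2F2 at 3.83 ± 0.115 and PRDM1 at 0.975 ± 0.208. Every DMSO library of a factor lay above every DMSO library of the next one, and the TP-064 libraries gave the same order. With the longest transcript as gene length BCL11A, which has a long union of exons, stood at 19.4 and passed BCL6 at 9.76, so the order of these neighbours depends on the length used. By percentile of tested genes TCF3, SPIB, PAX5 and EBF1, the most abundant of the 10, lay between the 92.0th and the 98.7th. BACH2 lay at the 83.2nd, POU2AF1 at the 65.9th and BCL6 at the 47.99th. BCL11A lay at the 45.3rd, POU2F2 at the 35.3rd and PRDM1 at the 17.3rd.

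PAX5, on chromosome 9 from 36833275 to 37034185 on the minus strand of GRCh38, is the commitment factor of the lineage. It read 28859, 27470 and 27458 normalized read counts in TP-064 replicates 1, 2 and 3 and 23112, 22344 and 22246 in DMSO replicates 1, 2 and 3. All TP-064 libraries lay above all DMSO libraries, and groups that did not overlap, in either direction, were found in 69.1% of tested genes and in 9 of the 10 factors. The rise was 0.31 on the log2 scale (SE 0.04, limma adjusted p = 1.81e-06), or 1.24-fold. It was 0.43 with library totals and 0.55 with the total per exon length. PAX5 overlaps an exon of the antisense gene AL161781.2 over 80 bases, 0.857% of its exon length. That gene read 82.3 normalized read counts in TP-064 replicate 3 and 1.08 to 14.8 in the other libraries, at most 0.300% of the PAX5 value in the same library.

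EBF1, on chromosome 5 from 158695916 to 159099761 on the minus strand, acts upstream of PAX5 in early B cells and is in turn maintained by it. In the DMSO libraries it read 10253, 10305 and 10204 normalized read counts, and in the TP-064 libraries 10964, 10539 and 10896. The groups did not overlap, but the difference of 0.07 (SE 0.03) did not pass the test (limma adjusted p = 0.0549). EBF1 passed without TP-064 replicate 2 at 0.09 and with library totals at 0.20, and stood at 0.32 with the total per exon length. Its difference thus lay close to the threshold under the deposited scaling.

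TCF3, on chromosome 19 from 1609290 to 1652605 on the minus strand, encodes the E proteins E12 and E47, which bind E boxes as dimers. It read 48422, 47745 and 43193 normalized read counts after TP-064 and 54795, 53428 and 56096 after DMSO. TP-064 replicate 3 was the lowest library and the groups did not overlap. The fall was -0.24 (SE 0.04, limma adjusted p = 2.40e-04), and it was -0.12 with library totals, -0.19 without TP-064 replicate 3 and 0.0038 with the total per exon length. The related E protein gene TCF4 rose by 0.45 (SE 0.03), from 24777 to 25329 normalized read counts after DMSO to 34102 to 34572 after TP-064, while TCF12 was not called at 0.04 but passed at 0.16 with library totals. ID3, which binds E proteins and keeps them off DNA, fell by 0.83 (SE 0.05), while ID1 was not called at -0.17 (0.0103 without DMSO replicate 1), and ID2 was not called at 0.11 but passed at 0.24 with library totals.

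SPIB, at 50418938 to 50431313 of chromosome 19 (plus strand), encodes an ETS factor related to PU.1. It read 16483, 16791 and 16874 normalized read counts after TP-064 and 15484, 15246 and 15696 after DMSO. Each TP-064 library exceeded each DMSO library, by a small amount. The rise was 0.11 (SE 0.03, limma adjusted p = 0.00665), or 0.23 with library totals and 0.35 with the total per exon length. SPI1, which encodes PU.1, was not called at -0.01 (SE 0.05) but passed at 0.23 with the total per exon length, and read 1388 to 1452 after TP-064 and 1314 to 1529 after DMSO.

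POU2AF1 and POU2F2, the coactivator and its octamer-binding partner, moved apart. POU2AF1, on chromosome 11 from 111352252 to 111455630 on the minus strand, read 3844, 3625 and 3389 normalized read counts after TP-064 and 2504, 2666 and 2602 after DMSO. This was the largest rise among the 10, at 0.48 (SE 0.05, limma adjusted p = 2.95e-07), or 1.40-fold. POU2F2, which encodes OCT2 on chromosome 19 from 42086110 to 42196585 on the minus strand, read 312, 270.04 and 299 normalized read counts after TP-064 and 522, 493 and 520.18 after DMSO. It had the largest fall among the 10, at -0.80 (SE 0.07, limma adjusted p = 1.97e-07), which left 0.574 of the DMSO mean. In neither gene did the groups overlap. POU2F1, which encodes the widely expressed octamer factor OCT1, was not called at 0.08 (SE 0.04) but passed at 0.20 with library totals and at 0.32 with the total per exon length.

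**Figure D2:**
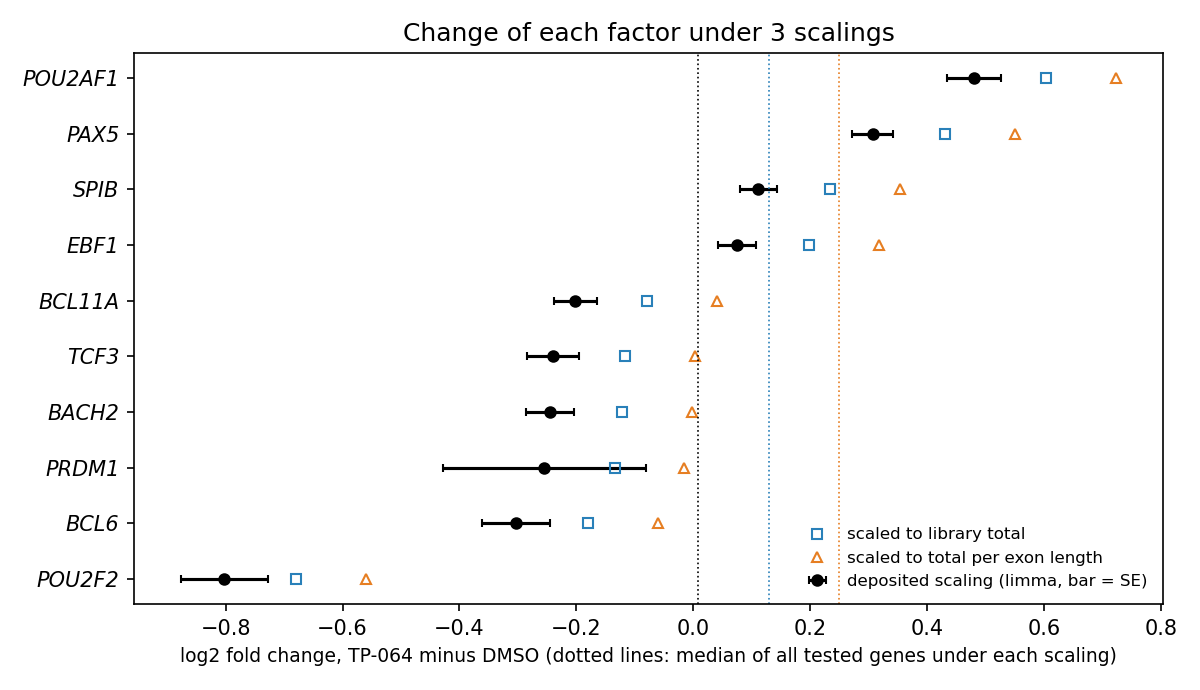
Log2 fold change (TP-064 minus DMSO) of each factor with the deposited scaling (black, bars are SE), with libraries scaled to their totals (blue squares) and to their totals per exon length (orange triangles). Dotted lines mark the median of all tested genes at 0.01, 0.13 and 0.25. POU2F2 lies left of 0 and POU2AF1, PAX5, SPIB and EBF1 right of it under each scaling.

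BCL6, on chromosome 3 from 187721377 to 187745727 on the minus strand, is the repressor that defines the germinal centre state. In the DMSO libraries it read 786, 840.05 and 779 normalized read counts, and in the TP-064 libraries 617, 652 and 679. All TP-064 libraries lay below all DMSO libraries. The fall was -0.30 (SE 0.06, limma adjusted p = 3.25e-04), to 0.810 of the DMSO mean, with -0.18 under library totals. BCL6 works through corepressors, and some of their genes fell too. RCOR1 changed by -0.49 (SE 0.04) and kept its call under all 3 scalings, while BCOR changed by -0.25 (SE 0.03) but stood at -0.0042 with the total per exon length. NCOR1 was not called at -0.01, and passed as higher at 0.12 with library totals and at 0.24 with the total per exon length. KDM1A was not called at -0.07, passed as lower at -0.0744 with a filter at 1 CPM or a replicate block and at -0.0879 without TP-064 replicate 1, and passed as higher at 0.17 with the total per exon length. FBXO11, a subunit of the ligase that marks BCL6 protein for degradation, was not called at 0.07, and passed at 0.19 with library totals.

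BACH2, on chromosome 6 from 89926529 to 90296908 on the minus strand, holds back plasma cell differentiation together with BCL6. It read 7184, 6464 and 6726 normalized read counts after TP-064 and 8296, 7801 and 8031 after DMSO. The groups did not overlap and the fall was -0.24 (SE 0.04, limma adjusted p = 9.92e-05), or -0.12 with library totals. Its relative BACH1 rose by 0.43 (SE 0.04), from 4900 to 5007 normalized read counts after DMSO to 6441 to 6849 after TP-064. Of the small MAF genes, whose proteins pair with BACH factors, MAFG rose by 0.38 and MAFK by 0.25, and MAFF was not called at -0.15 (0.086 with the total per exon length). BACH2 overlaps exons of the antisense gene AL121787.1 over 396 bases, 4.05% of its exon length. That gene read 21.3 normalized read counts in TP-064 replicate 3 and at most 0.989 in the other libraries.

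BCL11A, on chromosome 2 from 60450520 to 60555154 on the minus strand, read 2559, 2512 and 2507 normalized read counts after TP-064 and 2968, 2906 and 2846 after DMSO. All treated libraries were lower, with a fall of -0.20 (SE 0.04, limma adjusted p = 1.92e-04) that became -0.08 and lost its call with library totals. Its paralogue BCL11B, a T lineage factor, rose by 1.47 (SE 0.18) from a low level, at 107, 118 and 101 normalized read counts after TP-064 and 46.7, 38.8 and 31.4 after DMSO.

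PRDM1, at 106086320 to 106109939 of chromosome 6 (plus strand), was the least abundant of the 10. It read 82.2, 78.1 and 67.03 normalized read counts after TP-064 and 107, 99.4 and 69.2 after DMSO. The groups overlapped, since DMSO replicate 3 lay among the treated libraries. The difference of -0.26 (SE 0.17) did not pass the test (limma adjusted p = 0.215), and without DMSO replicate 3 it was -0.44 and passed. PRDM1 rested on 64 to 103 reads per library, and at 64 reads the exact 95% Poisson interval for counting error alone runs from 49.3 to 81.7. PRDM1 mRNA was thus low in both groups.

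Ratios of normalized read counts within 1 library do not depend on the scaling of that library, and were compared only between libraries. The pairs were chosen after the values were seen, and no test was run on them. POU2AF1 over POU2F2 was 12.3, 13.4 and 11.4 in the TP-064 libraries and 4.7952, 5.41 and 5.00 in the DMSO libraries, the widest separation of the pairs examined. These genes had the largest rise and the largest fall among the factors, so their ratio had to separate most among pairs of factors. That rank is therefore no separate result. PAX5 over TCF3 was 0.596, 0.575 and 0.636 against 0.422, 0.418 and 0.397, and PAX5 over EBF1 was 2.63, 2.61 and 2.52 against 2.25, 2.17 and 2.18. TCF3 over its inhibitor gene ID3 was 8.93, 8.23 and 8.87 against 6.00, 5.49 and 5.78, so TCF3 mRNA was higher relative to ID3 in the treated libraries. TCF3 over TCF4 was 1.40, 1.40 and 1.26 against 2.17, 2.16 and 2.21. The antagonists BCL6 and PRDM1 had overlapping ratios, at 7.51, 8.34 and 10.1 against 7.35, 8.45 and 11.25, and so did BACH2 over PRDM1, at 87.4, 82.7 and 100.35 against 77.6, 78.5 and 116. PAX5 over PRDM1 did not overlap, at 351, 352 and 409.65 against 216, 225 and 321. All ratios to PRDM1 rest on its 64 to 103 reads per library, so overlap there does not show that a ratio was unchanged.

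**Figure D3:**
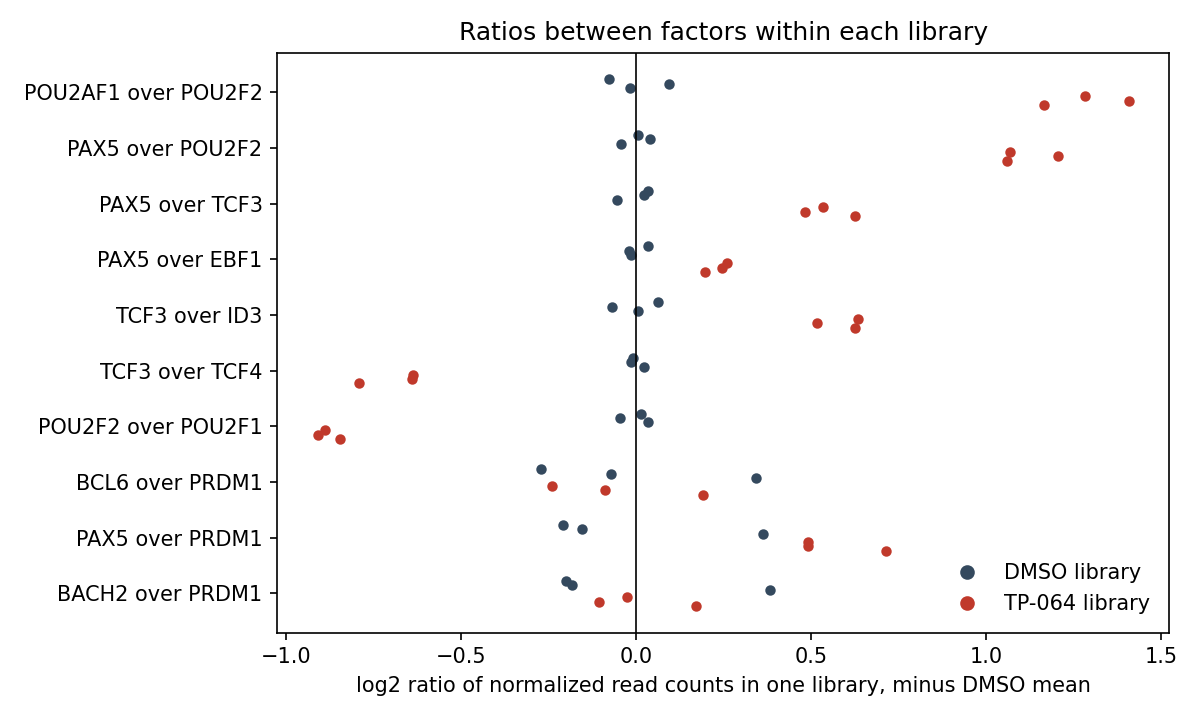
Log2 ratio of the normalized read counts of a pair of genes in each library, minus the mean of the DMSO libraries, for DMSO (dark) and TP-064 (red). The POU2AF1 over POU2F2 ratio is 11.4 or more in each TP-064 library and at most 5.41 in each DMSO library, while ratios of BCL6 and BACH2 to PRDM1 overlap between the groups.

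Genes around the factors were counted in 8 lists, read against the 65.1% of all tested genes that were called. By direction, 31.9% of all tested genes were called higher and 33.3% lower with the deposited scaling. These shares were 41.4% and 25.8% with library totals, and 49.9% and 18.8% with the total per exon length. In all 8 lists, counts under the other scalings are to be read against the shares of the same scaling. Of 12 tested paralogues 6 rose and 1 fell, with a median of 0.24, and these became 11 and 0 with the total per exon length. PRDM15, a zinc finger relative of PRDM1, stood at 4872 ± 84.9 normalized read counts after DMSO and 13234 ± 309 after TP-064 (SD, n = 3 each), a rise of 1.44 (SE 0.03). BCL6B, the closest relative of BCL6, fell by 0.91 (SE 0.31), at 12.9 to 25.3 normalized read counts after TP-064 and 23.9 to 47.8 after DMSO, groups that overlap. It was not called without TP-064 replicate 2 (-0.70), DMSO replicate 1 (-0.67) or DMSO replicate 3 (-0.91), or with the total per exon length (-0.68). Of 24 tested partners and regulators 4 rose and 10 fell, with a median of -0.11, but 9 rose and 7 fell with library totals and 14 and 5 with the total per exon length. FBXO10, an F-box gene, rose by 1.11 (SE 0.08) and ID3, given above, had the smallest p among the 10 that fell.

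Of 30 tested targets of PAX5 and EBF1, 12 rose and 13 fell, with a median of -0.01, so that 83.3% were called beside 65.1% of all tested genes. With library totals 15 rose and 13 fell, with a median of 0.11, and with the total per exon length 16 rose and 11 fell. The list holds 5 of the 10 factors, PAX5 and EBF1 included. BLNK, the adaptor below the B cell receptor, rose by 2.50 (SE 0.04), and CD22, an inhibitory coreceptor, changed by -2.54 (SE 0.07). Chosen after their values were seen, CD79A, a textbook PAX5 target, changed by -0.62 (SE 0.05), while CD72 rose by 1.12 and VPREB3 by 0.77. RAG1, a subunit of the recombinase of lymphocyte precursors, was also chosen after its values were seen and read 13812, 11938 and 13406 normalized read counts after DMSO and 43280, 41878 and 43755 after TP-064. VPREB1, a surrogate light chain gene chosen in the same way, read 5532, 5688 and 5530.5 after DMSO and fell by 0.87.

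Of 33 tested genes that BCL6 is known to repress, 9 rose and 16 fell, with a median of -0.17, where BCL6 itself was lower. With library totals 10 rose and 12 fell, and with the total per exon length 13 rose and 10 fell. TLR7, a sensor of single-stranded RNA, rose by 1.63 (SE 0.04). CHEK1 encodes a kinase of the DNA damage checkpoint and had a log2 fold change of -2.01 (SE 0.05). CDKN1A, the inhibitor p21, chosen after its value was seen, changed by -1.90 (SE 0.09). Of 20 tested genes that PRDM1 is known to repress, 6 of them among the 10 factors, 6 rose and 10 fell, with a median of -0.11, and 10 rose and 5 fell with the total per exon length. BTK, the kinase of B cell receptor signalling, rose by 0.68 (SE 0.03), and CD22 fell as given above.

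Of 24 tested plasma cell genes 8 rose and 11 fell, with a median of -0.12, and 12 rose and 7 fell with the total per exon length. CD38, an ectoenzyme of germinal centre and plasma cells, rose by 0.66 (SE 0.03), and XBP1, the factor of the secretory programme, changed by -1.06 (SE 0.04). Chosen after its value was seen, JCHAIN, the chain that joins polymeric immunoglobulin, rose by 0.55 (SE 0.04), and SDC1, the plasma cell surface marker, was below the level tested, at a mean under 10. Of 27 tested germinal centre genes 10 rose and 13 fell, with a median of -0.02, and 13 rose and 6 fell with the total per exon length. KLHL6, a BTB protein of germinal centre B cells, rose by 0.999 (SE 0.03), and EZH2, the catalytic subunit of Polycomb complex PRC2, stood at -1.16 (SE 0.03). MEF2B, LMO2 and SERPINA9 were not analysed here. Of 30 tested other factors of the B lineage 16 rose and 12 fell, with a median of 0.14, and 18 rose and 10 fell with library totals and 19 and 7 with the total per exon length. MEF2C rose by 1.40 (SE 0.05) and ETS1 changed by -0.88 (SE 0.03). How the counting treated strand is unknown here, and BLNK, CD72, RAG1, JCHAIN, MEF2C, MAFK, NCOR1 and FBXO11 share exon bases with genes on the opposite strand, so reads of the 2 strands cannot be told apart there.

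**Figure D4:**
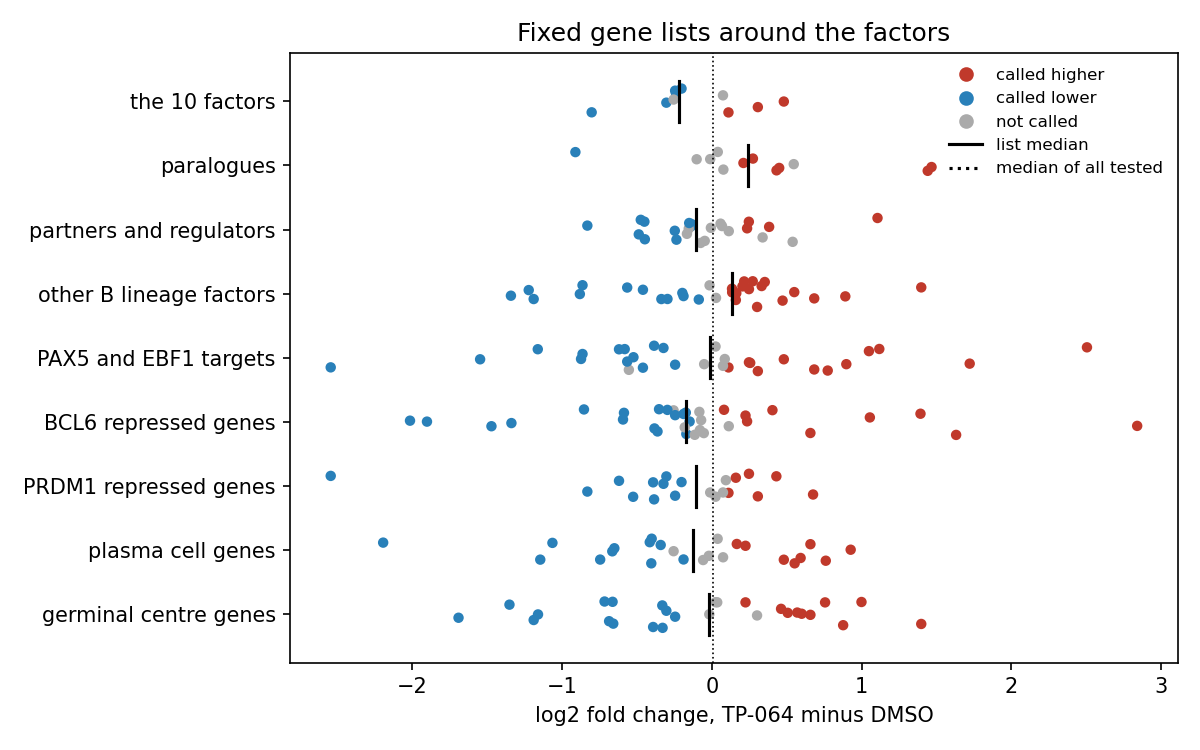
Log2 fold change (TP-064 minus DMSO) of the tested genes of each list, in red where called higher, in blue where called lower and in grey where not called, with a bar at the list median and a dotted line at the median of all tested genes (0.01). Each list holds genes called in both directions, and the 10 factors lie between -0.80 and 0.48.

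Genes with the most similar pattern to the largest riser and the largest faller were sought by the root mean square distance over the 6 samples, in log2 values centred on the DMSO mean, among 11099 genes with a mean of at least 100. Nearest to POU2AF1 were MIDN at 0.0222, PKD1 at 0.0225 and MGAT4B at 0.0264. Nearest to POU2F2 were ARHGEF39 at 0.0369, PLIN2 at 0.0387 and ASS1 at 0.0403. Within a distance of 0.1 lay 658 of the 11099 genes for POU2AF1 and 149 for POU2F2, so such likeness was not particular to the genes named.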

How the data were processed

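Per the labels' protocols, the RNA of 3 TP-064 and 3 DMSO samples of Toledo was purified on columns, and a stranded kit with poly(A) selection was used for the libraries. TopHat2 2.0.10, HTSeq 0.6.0, DESeq 1.18.0 and the hg38 build are named per the submitters' processing notes. For the annotation release, the strand setting and any row filter, the sources used here give nothing. The deposited table lists 18278 genes, and its signal is what the authors obtained by dividing read counts by a size factor for each sample. Columns were matched to samples by name. Within a column all values (100%, at a tolerance of 0.001) were multiples of the same step, taken as 1 read. In replicate 2 of both groups that step lies close to 1, so the reads recovered there rest on the decimals and the recomputed size factor. Pairs of replicates differed by 3.18 to 7.95 chi-square units per degree of freedom, above sampling noise, and none was counted as a repeat.

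The design called for edgeR on raw counts, or limma where values are normalized. So limma 3.58.1 in R 4.3.3 was fitted with the trend option to log2(normalized read count + 1), with 1 as the pseudocount, on the 16048 genes with a mean of at least 10 (2230 left out). P-values were adjusted by the Benjamini-Hochberg method over all genes, two-sided, and called under 0.05. Fold changes of low genes are understated on this scale. No replicate block was used. Symbols, coordinates and exon lengths come from GENCODE 29 on GRCh38, for 18214 genes. Levels per length are normalized counts over the union of exons, scaled to 1000000 per library.

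The members and lists were chosen with earlier results of these data known. Every member is named. From each list the called gene with the smallest p in each direction is named, and any tested paralogue or partner may be. Some genes of the lists are not reported here by name. For any other gene the text says that its values were known when it was chosen. Alternatives were edgeR 4.0.16 with TMM or median-of-ratios factors, DESeq2 1.42.0 and limma-voom on recovered reads, library totals, no filter, 1 CPM in 3 samples, pseudocounts of 0.5 and 5, a replicate block, each library left out, a threshold of 0.01 and a null of a 1.2-fold change. Scaling to the total per exon length was added after seeing the data.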

Additional observations from a re-analysis of the deposited data

How the results depend on the processing

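Of the 10 factors, POU2AF1, PAX5, SPIB and POU2F2 kept their direction under every alternative run, with ranges of 0.44 to 0.72, 0.28 to 0.55, 0.10 to 0.35 and -0.85 to -0.56, and lost no call except against a null of a 1.2-fold change. With that null, 5592 genes and 2 of the 10 factors were called, 1 higher (POU2AF1) and 1 lower (POU2F2). PAX5 (0.31, adjusted p = 0.256), SPIB (0.11, adjusted p = 1), BCL6 (-0.30, adjusted p = 0.494), BACH2 (-0.24), TCF3 (-0.24) and BCL11A (-0.20, adjusted p = 1 for these 3) were then not called by limma. The same null called 34.8% of all tested genes, 18 of 30 PAX5 and EBF1 targets, 16 of 33 genes BCL6 represses, 7 of 20 PRDM1 represses, 13 of 24 plasma cell genes, 15 of 27 germinal centre genes, 12 of 30 other B lineage factors, 4 of 12 paralogues and 7 of 24 partners and regulators.

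With the total per exon length, added after seeing the data, 5 factors were called, 1 of them lower. BCL6 stood at -0.0607, BACH2 at -0.0019, TCF3 at 0.0038, BCL11A at 0.0408 and EBF1 at 0.32, and 11 paralogues were called. Scaling by library totals moved BCL11A to -0.0794 and EBF1 to 0.197. Among the other genes named, 5 that were not called (NCOR1, SPI1, KDM1A, ID1 and MAFF) and IRF4 changed sign. NCOR1 stood at 0.117 with library totals, 0.237 with the total per exon length, 0.023 with both edgeR (TMM) and limma-voom, and from -0.0324 to 0.0078 with 1 library left out. SPI1 stood at 0.112, 0.232, 0.0164 (TMM), 0.0201 (limma-voom) and -0.0727 to 0.0365 in the same order. KDM1A stood at 0.0483 with library totals and 0.169 with the total per exon length, where ID1 (0.0632), MAFF (0.086) and IRF4 (0.0543) also changed sign, and ID1 ran from -0.271 to 0.0103 with 1 library left out. The share of higher genes among all calls was 48.9% with the deposited scaling, 61.6% with library totals and 72.6% with the total per exon length. Library totals and totals per exon length move all genes up, so neither could reverse the rises of POU2AF1, PAX5 and SPIB.

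EBF1 was called with edgeR and TMM (0.10), DESeq2 (0.0794), limma-voom (0.10) and a filter at 1 CPM (0.0746). With 1 library left out EBF1 ran from 0.0636 to 0.0921 and PRDM1 from -0.44 to -0.13, 8 to 9 factors were called, and the count over all genes ran from 9732 to 10247. With the longest transcript as gene length the DMSO levels were 44.9 for BACH2, 19.4 for BCL11A, 9.76 for BCL6, 99.3 for EBF1, 133 for PAX5, 39.986 for POU2AF1 and 208 for SPIB. The causes of these shifts were not tested.

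Same-numbered deviations of the replicates correlated at -0.0859, 0.0659 and -0.0793, so no shared deviation of same-numbered samples was seen. This cannot decide whether the samples were paired by design. With the replicate block 10491 genes and 8 of the 10 factors were called, and no factor changed its call.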

Other observations

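Among other factors of the B lineage, chosen here after their values were seen, several differed by more than the 10 did. KLF2, a factor of quiescence and trafficking, changed by -1.34 (SE 0.10), at 316, 323 and 237 normalized read counts after TP-064 and 736, 747 and 719 after DMSO. MYBL1, a MYB relative of germinal centre B cells, changed by -1.19 (SE 0.07), and RUNX3 by -1.22 (SE 0.15). IKZF3, which encodes Aiolos, changed by -0.86 (SE 0.04), while its relative IKZF1 rose by 0.14 (SE 0.03). LEF1, a WNT pathway factor of B cell precursors, rose by 0.68 (SE 0.04), GFI1 by 0.89 (SE 0.06) and ZEB2 by 0.55 (SE 0.04). LEF1 and ZEB2 share 279 and 1299 exon bases with antisense genes, whose reads cannot be told apart from theirs. In KLF2, MYBL1, RUNX3, IKZF3, IKZF1, LEF1, GFI1 and ZEB2 the TP-064 libraries did not overlap the DMSO libraries, as in 69.1% of all tested genes. IRF4, which together with PRDM1 drives plasma cell differentiation, read 35445, 35880 and 35445 normalized read counts in the DMSO libraries and 31463, 31579 and 30641 in the TP-064 libraries, a fall of -0.19 (SE 0.03) that became -0.066 with library totals and 0.0543 with the total per exon length, neither called. IRF8, its germinal centre relative, read 144, 221 and 165 against 249, 271 and 252, a fall of -0.56 (SE 0.13).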
